A study of Mus musculus with 7 samples.

Results

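The neuropeptide precursor genes examined in mouse hippocampus were Penk, Pdyn, Tac1, Tac2, Adcyap1, Crh, Cort, Nts and Grp, which is 9 of the 55416 genes counted. They were picked by name as genes that encode peptide transmitters, leaving out the classical interneuron peptides. The rule uses no measured value, but it was set with earlier results of these data known. RNA-seq had been performed on hippocampi of male, age-matched, outbred CD1 mice in 3 groups, and 7 libraries were analysed here. The control group (n = 3) was not injected. The ONX-0914 group (n = 2) received 10 mg/kg of ONX-0914, an inhibitor of the immunoproteasome, by intraperitoneal injection 2 times a week for 2 months. The DMSO group (n = 2) received an equal volume of DMSO on the same schedule. Nothing in the labels says that each library came from a separate animal, so the p-values below measure the spread between these libraries, which may be technical in part.

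A neuropeptide gene encodes a precursor protein that is cut in the secretory pathway, usually at pairs of basic residues, and the finished peptides are stored in dense-core vesicles and act on G protein-coupled receptors. Penk gives the enkephalins and Pdyn the dynorphins, which in the hippocampus are known from the mossy fibres of dentate granule cells and act on opioid receptors. Tac1 gives substance P and neurokinin A, Tac2 gives neurokinin B, Adcyap1 gives the peptide PACAP, Crh gives corticotropin-releasing hormone, Cort gives cortistatin, Nts gives neurotensin and Grp gives gastrin-releasing peptide. Many of these genes are also expressed outside the hippocampus, Penk and Tac1 abundantly in the striatum.

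The opioid and tachykinin precursors differ in how many peptide copies they hold, which is shown here because Penk and Pdyn, and Tac1 and Tac2, are set side by side below. In the longest annotated coding sequence of each gene (GENCODE M21), Penk (804 bases) held 7 copies of the opioid core, 6 ending in a methionine codon and 1 in a leucine codon, and Pdyn (744 bases) held 3, all ending in a leucine codon. Tac1 (390 bases) held 2 tachykinin cores and Tac2 (348 bases) held 1. Codons for a basic pair stood on both sides of 5 of the Penk cores and of all 3 Pdyn cores, and directly after all 3 tachykinin cores. The capitals mark the core, with the neighbouring codons in lower case:
Penk, opioid core copy 1, bases 292 to 318: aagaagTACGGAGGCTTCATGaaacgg
Penk, opioid core copy 6, bases 685 to 711: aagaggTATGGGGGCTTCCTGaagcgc
Pdyn, opioid core copy 1, bases 490 to 516: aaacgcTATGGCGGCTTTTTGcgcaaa
Pdyn, opioid core copy 2, bases 598 to 624: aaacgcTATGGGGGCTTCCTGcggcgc
Pdyn, opioid core copy 3, bases 655 to 681: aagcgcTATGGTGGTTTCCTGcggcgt
Tac1, substance P core, bases 184 to 213: cagcagTTCTTTGGATTAATGGGCaagcgg
Tac1, neurokinin A core, bases 301 to 330: gattccTTTGTTGGACTAATGGGCaaaaga
Tac2, neurokinin B core, bases 253 to 282: gacttcTTTGTGGGACTTATGGGCaagagg

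Several neuropeptide genes are textbook targets of the transcription factor CREB, which binds the cyclic AMP response element. Its core letters TGACG were searched on both strands (as TGACG or CGTCA) in RefSeq promoter windows of build GRCm38.p6, from 250 bases before to 50 bases after the transcription start. Of the 9 genes, 6 had a window. The letters were present for 4 of these (Tac1, Adcyap1, Cort and Nts) and absent from the windows of Pdyn and Tac2, while 20.91% of all 32544 windows held them. The full palindrome TGACGTCA, which contains them, was in 1.8% of all windows and in none of these 6 genes. Tac1 held the letters 2 times, starting at -197 and -43, against 5.04% of all windows with 2 or more. Adcyap1 held them at -91, Cort at -18 and Nts at -166. A match is a description of the letters and shows no binding. The windows of Tac1, which was high in 1 of the ONX-0914 libraries described below, and of Adcyap1, which was high in both, read as follows, with the matched letters in capitals:
Tac1, chr6:7554811-7555110, plus strand: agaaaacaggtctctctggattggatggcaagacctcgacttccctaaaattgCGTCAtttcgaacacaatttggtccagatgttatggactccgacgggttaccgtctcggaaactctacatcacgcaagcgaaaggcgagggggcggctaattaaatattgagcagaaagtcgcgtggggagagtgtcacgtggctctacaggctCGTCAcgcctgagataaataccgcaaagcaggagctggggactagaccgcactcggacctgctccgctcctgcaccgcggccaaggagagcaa
Adcyap1, chr17:93198767-93199066, plus strand: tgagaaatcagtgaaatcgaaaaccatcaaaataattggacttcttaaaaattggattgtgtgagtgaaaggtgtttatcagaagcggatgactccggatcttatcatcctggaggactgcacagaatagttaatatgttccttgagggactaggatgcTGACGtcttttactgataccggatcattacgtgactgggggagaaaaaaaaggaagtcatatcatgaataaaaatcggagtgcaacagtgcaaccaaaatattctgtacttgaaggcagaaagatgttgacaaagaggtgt

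Sequencing gave 2842675 to 13782270 reads counted on genes per library, and 1 read was worth 0.0661 to 0.357 CPM, the unit used below for reads on a gene relative to the scaled library total. The deepest library was ONX-0914 replicate 2, and the other 6 held at most 3877006 reads. The 2 ONX-0914 libraries differed from each other far more than other replicates did, with a chi-square per degree of freedom over genes of 76.9 against 2.50 to 3.20 for the 4 pairs within the control and DMSO groups. Marker genes of hippocampal fields were detected in all libraries. ONX-0914 replicate 1, however, held 115 CPM summed over 7 dentate gyrus markers (365.8 to 495 in control) and 206 CPM over 5 CA1 markers (562 to 633 in control). All 12 of these genes were below every control library. The 5 CA3 markers summed to 361 CPM (419 to 437 in control), with 4 of them below every control library and 1 above. In the same library all 9 striatum markers and all 11 thalamus and midbrain markers were above every control library, with sums of 1226 CPM (221 to 254 in control) and 1334 CPM (142 to 161 in control). ONX-0914 replicate 2 had dentate gyrus, CA1, CA3, striatum and thalamus sums of 397, 640, 382, 176 and 150 CPM. Its sum over 8 neocortex markers was 419 CPM (248 to 327 in control), and 6 of these were above every control library. Over all genes tested, 36.8% lay above every control library and 32.3% below in replicate 1, and 40% and 38.8% in replicate 2. In bulk tissue such as this, fewer cells of a type and less RNA per cell cannot be told apart. Because these 2 libraries stand apart, every member is given per library below, and for the 8 tested members the Log2FC of ONX-0914 against control is given without each of them. Such a fit leaves a lone ONX-0914 library, which is assumed to vary like the libraries of the other groups. In these fits 51.2% of all genes tested were called without replicate 1 and 19% without replicate 2, so passing the threshold there is common among all genes.

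In untreated hippocampus all 9 genes were detected in every library, and Penk had the highest level per length. On the scale of CPM per kilobase of exon, Penk stood at 13.1 ± 2.47 (SD, n = 3), above every control value of the next gene, Pdyn, at 4.52 ± 0.222. Grp (3.93 ± 3.06) and Tac2 (3.84 ± 0.79) followed Pdyn with overlapping ranges. The 5 lowest genes were Nts (1.78 ± 1.18), Cort (1.55 ± 0.957), Adcyap1 (1.39 ± 0.677), Tac1 (1.12 ± 0.349) and Crh (1.10 ± 0.251), and each overlapped its neighbour in this order. The range of Tac2 lay above that of Nts. By group mean, Penk was first and Pdyn second in the DMSO and in the ONX-0914 groups too. In ONX-0914 replicate 1, however, Tac1 (7.11) and Tac2 (6.39) stood above Pdyn (5.49).

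**Figure D1:**
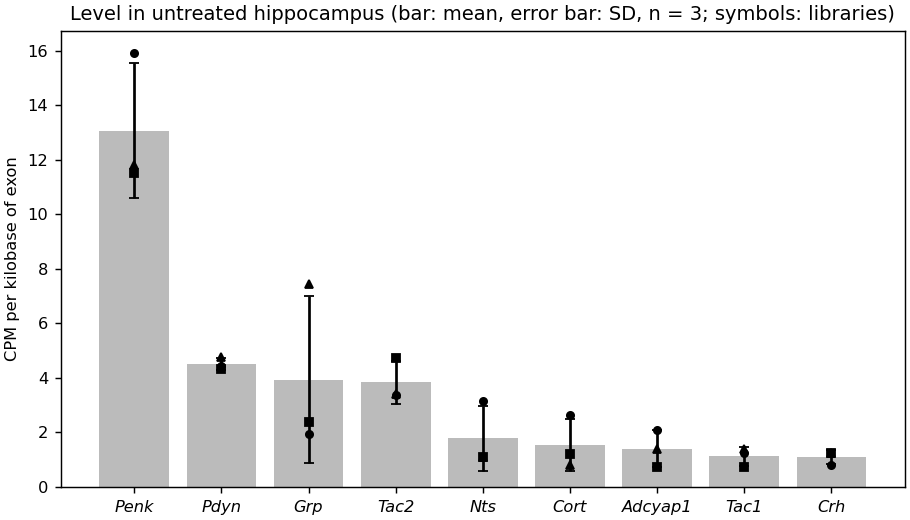
Level of each gene in untreated hippocampus in CPM per kilobase of exon, with bars for the mean, error bars for the SD (n = 3) and symbols for the libraries (circle, square and triangle for replicates 1, 2 and 3). Penk at 13.1 stands above the other 8 genes, and Grp has the widest spread, from 1.93 to 7.46.

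The first comparison asked how these genes differed between ONX-0914-treated and untreated mice. None of the 8 genes that passed the filter on low counts was called at FDR < 0.05, and 0.114% of all 13152 genes tested were called (15 genes). In both ONX-0914 libraries Penk, Pdyn, Adcyap1 and Crh were above all 3 control libraries, which is 4 of 9 genes, where 16.9% of all genes tested lay above and 16.3% below in this way. No member lay below. At an unadjusted p under 0.05 stood 3 members (Penk, Adcyap1 and Crh) and 2447 of all genes tested. The median Log2FC of the 8 genes was 1.06, with 7 positive, and the median of all genes tested was 0.05. Crh was among the 8 only because its level in the ONX-0914 libraries passed the filter, so its place in these counts is not independent of its difference. Without Crh the median of the other 7 was 0.57, with 6 positive. Cort did not pass.

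Against DMSO, the vehicle of the injections, again 0 of 8 genes passed FDR < 0.05 (0.0456% of all genes tested, 6 genes), and 3 had an unadjusted p under 0.05, against 1937 of all genes. Penk, Adcyap1 and Crh were above both DMSO libraries in both ONX-0914 libraries and Pdyn was below, where 20.8% of all genes tested lay above and 19.7% below. Crh again entered these counts only through its level in the ONX-0914 libraries. Between DMSO and control, 0 of 8 genes passed (0.0152% of all genes tested, 2 genes), 1 gene (Pdyn) had an unadjusted p under 0.05 against 349 of all genes, and Pdyn and Tac2 were above all control libraries in both DMSO libraries, where 15.7% of all genes tested lay above and 15% below. The ONX-0914 libraries enter both of the first comparisons and the control libraries enter the first and the last, so the 3 sets of values are not independent.

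**Figure D2:**
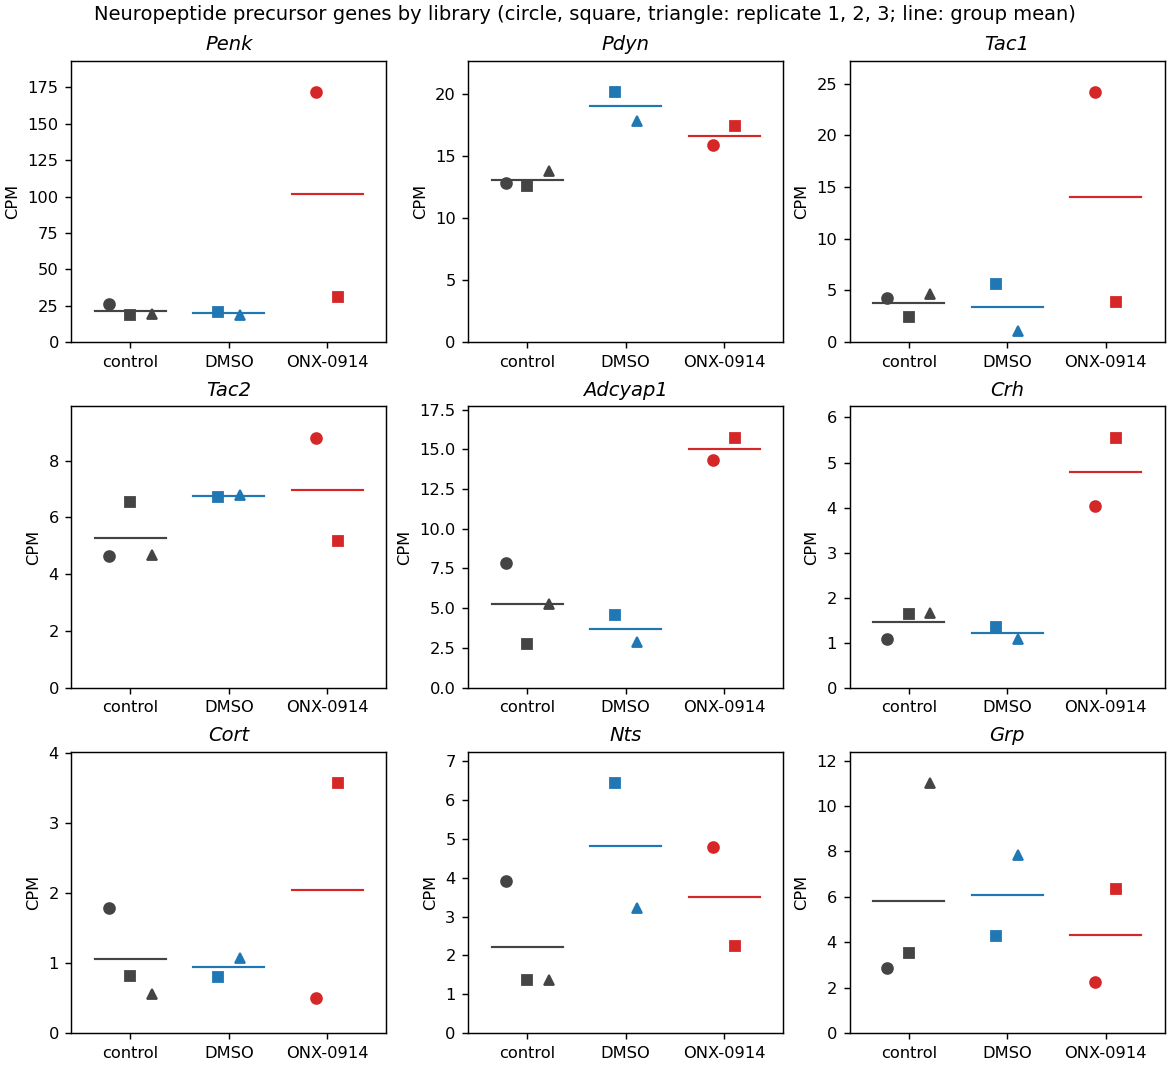
Level of each of the 9 genes in CPM in the 7 libraries, by group, with circle, square and triangle for replicates 1, 2 and 3 and a line for the group mean. Penk and Tac1 reach 172 and 24.2 CPM in ONX-0914 replicate 1 and only 31.3 and 3.90 in replicate 2, whereas Adcyap1 and Crh are high in both.

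Penk, the proenkephalin gene, was counted at 26.0, 18.8 and 19.3 CPM in the control libraries. The DMSO libraries held 20.9 and 18.6 CPM, and ONX-0914 replicates 1 and 2 held 172 and 31.3 CPM. Both ONX-0914 libraries lay above the other 5, replicate 1 by far the most. The group means were 21.4 ± 4.04 (SD, n = 3), 19.7 ± 1.67 (n = 2) and 101 ± 99.3 (n = 2). The Log2FC was 2.23 ± 0.579 (SE) against control (FDR = 0.133) and 2.34 ± 0.67 against DMSO (FDR = 0.215), and with the unfiltered table it passed (FDR = 0.00187 against control, with 2.15% of all genes called), as it did in DESeq2 (FDR = 0.00316, with 2.95% called). Without ONX-0914 replicate 1 the Log2FC against control was 0.56 (FDR = 0.0143), and without replicate 2 it was 3.02 (FDR = 4.5e-12). In the library with 172 CPM of Penk, the striatum marker sum was 1226 CPM, with the dopamine receptor Drd2 at 53.6 CPM (2.75 to 3.0 in control) and the adenosine receptor Adora2a at 52.9 (1.07 to 2.18 in control). In replicate 2 Drd2 and Adora2a stood at 1.92 and 2.05, and Penk was still 1.46 times the control mean. The part of the striatum markers in the Penk value of replicate 1 was not tested. The gene's exons overlap those of A830012C17Rik on the opposite strand, which had no count in any library.

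Pdyn, the prodynorphin gene, had the tightest control values, 12.8, 12.5 and 13.8 CPM. The DMSO libraries held 20.1 and 17.8 CPM and the ONX-0914 libraries 15.9 and 17.4. Both injected groups lay above control, DMSO higher than ONX-0914, with no overlap between the 3 groups. Log2FC was 0.54 ± 0.215 for DMSO against control (unadjusted p = 0.0348, FDR = 0.99994), 0.35 ± 0.208 for ONX-0914 against control (FDR = 0.383) and -0.19 ± 0.226 for ONX-0914 against DMSO (FDR = 0.684). Leaving out ONX-0914 replicate 1 or replicate 2 gave a Log2FC against control of 0.40 or 0.28, neither called. Pdyn did not share the high value of Penk in ONX-0914 replicate 1, where it was at 1.22 times the control mean.

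Tac1, the precursor of substance P and neurokinin A, was counted at 4.28, 2.45 and 4.68 CPM in control and at 5.63 and 1.07 CPM in DMSO. Its level was 24.2 CPM in ONX-0914 replicate 1 and 3.90 in replicate 2. ONX-0914 replicate 1 stood far above the control range and replicate 2 lay within it, while the DMSO libraries lay on either side of it. The lowest DMSO value rested on 3 reads. Log2FC was 1.76 ± 0.821 against control (FDR = 0.291) and 1.85 ± 0.942 against DMSO (FDR = 0.383). Without ONX-0914 replicate 1 the Log2FC against control was 0.04 and without replicate 2 it was 2.67 (FDR = 9.4e-06), so 1 library carried the difference. In limma voom the Log2FC against control was 0.89, and against DMSO it was 3.56 without DMSO replicate 2 and 1.18 without DMSO replicate 3. ONX-0914 replicate 1 is the library with the high striatum and thalamus marker sums, and their part in the Tac1 value was not tested.

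Tac2, the neurokinin B precursor, stood at 4.63, 6.54 and 4.68 CPM in control, 6.71 and 6.78 in DMSO, and 8.81 and 5.15 in ONX-0914. The DMSO libraries lay just above the highest control library, and of the ONX-0914 libraries replicate 1 lay above the control range and replicate 2 within it. Log2FC was 0.32 ± 0.355 for ONX-0914 (FDR = 0.644) and 0.34 ± 0.382 for DMSO (FDR = 0.99994), each against control. The ONX-0914 value rested on replicate 1, since without it the Log2FC was -0.06, and without replicate 2 it was 0.71.

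Adcyap1, which encodes PACAP, was higher in both ONX-0914 libraries by similar amounts. The counts were 7.84, 2.73 and 5.23 CPM in control, 4.56 and 2.86 in DMSO, and 14.3 and 15.7 in ONX-0914. They rested on 8 to 22 reads per library outside ONX-0914, and on 57 and 238 reads in the ONX-0914 libraries. All ONX-0914 values were above all others, with means of 15 ± 0.977 (SD, n = 2) against 5.27 ± 2.56 (n = 3) in control and 3.71 ± 1.21 (n = 2) in DMSO. Log2FC was 1.55 ± 0.385 against control (unadjusted p = 0.0036, FDR = 0.127) and 1.99 ± 0.459 against DMSO (FDR = 0.158). In the unfiltered table the FDR against control was 0.0178, with 2.15% of all genes called, and in DESeq2 it was 0.0785. Over the 17 alternatives the Log2FC against control ranged from 1.22 to 1.92, with a highest FDR of 0.408. Without ONX-0914 replicate 1 the Log2FC against control was 1.62, and without replicate 2 it was 1.49. The Log2FC was thus of similar size with either ONX-0914 library alone.

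Crh, the corticotropin-releasing hormone gene, rested on 3 to 6 reads per library outside the ONX-0914 group. It stood at 1.07, 1.64 and 1.65 CPM in control, 1.34 and 1.07 in DMSO, and 4.03 and 5.55 in ONX-0914, where 16 and 84 reads were counted. Both ONX-0914 libraries were above the other 5. Log2FC was 1.73 ± 0.427 against control (unadjusted p = 0.00348, FDR = 0.127) and 2.00 ± 0.514 against DMSO (FDR = 0.182). It was 1.88 without ONX-0914 replicate 1 (FDR = 9.7e-04) and 1.42 without replicate 2, where it missed the threshold. The summed level of 7 hypothalamus markers, among them the vasopressin and oxytocin genes, was 0.713 to 1.38 CPM in control, 0.268 and 1.78 in DMSO, and 4.28 and 1.06 in ONX-0914 replicates 1 and 2. In ONX-0914 replicate 1, 5 of these 7 markers were above every control library, on 1 to 4 reads each. In replicate 2, where Crh was higher, 3 of them were above, on 1 to 5 reads each. The part of these markers in the Crh value was not tested.

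**Figure D3:**
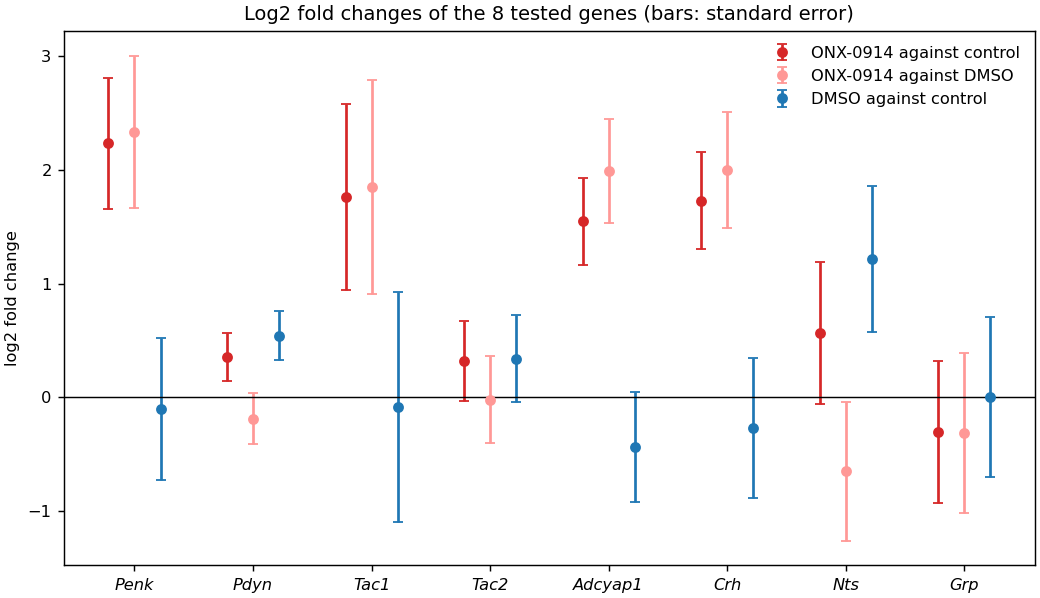
Log2FC of the 8 tested genes in the 3 comparisons, with bars for the standard error. Penk, Tac1, Adcyap1 and Crh lie between 1.55 and 2.34 in both ONX-0914 comparisons, with the widest bars for Tac1, and the DMSO values reach from -0.44 to 1.22.

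Cort, the cortistatin gene, was close to the limit of detection in 6 of the 7 libraries. It was counted at 1.78, 0.818 and 0.551 CPM in control (5, 3 and 2 reads), 0.805 and 1.07 in DMSO (3 reads each), and 0.503 and 3.57 in ONX-0914 (2 and 54 reads). Only ONX-0914 replicate 2 lay above the control range, and replicate 1 lay below it. In the unfiltered table the Log2FC against control was 1.38 ± 0.695 (FDR = 0.375). The classical interneuron peptides, known to be made in many of the same cell classes as cortistatin, had a like order. Sst was at 22.7 and 111 CPM in ONX-0914 replicates 1 and 2 (25.1 to 31.9 in control), Npy at 8.05 and 44.2 (5.70 to 9.64), Vip at 12.1 and 44.5 (9.98 to 13.2) and Cck at 70.5 and 270 (92 to 122). Thus all 4 were above every control library in replicate 2, where 40% of all genes tested lay above and 38.8% below. In replicate 1 none was above and 2 (Sst and Cck) were below, where 36.8% lay above and 32.3% below. None of the 4 passed FDR < 0.05, and the 2 largest Log2FC were those of Npy (1.87 ± 0.594, FDR = 0.174) and Vip (1.38 ± 0.467, FDR = 0.189). Replicate 2 was also the library with the higher neocortex marker sum, and its part in these values was not tested. Summed over 9 markers of GABAergic neurons, the order was the other way, with 1502 CPM in replicate 1 and 774 in replicate 2 (737 to 769 in control). Of these markers, 6 were above every control library and 3 below in replicate 1, and 2 above and 5 below in replicate 2. The shares of all genes tested are those just given for each library.

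Nts, the neurotensin gene, was counted at 3.92, 1.36 and 1.38 CPM in control, 6.44 and 3.21 in DMSO, and 4.78 and 2.25 in ONX-0914. All groups overlapped. Log2FC was 1.22 ± 0.645 for DMSO (unadjusted p = 0.0945, FDR = 0.99994) and 0.57 ± 0.627 for ONX-0914 (FDR = 0.641), each against control. These values depended on single libraries. The ONX-0914 value was 0.098 without ONX-0914 replicate 1, 1.18 without replicate 2 and 1.22 without control replicate 1, none of them called. The DMSO value was 0.60 without DMSO replicate 2 and 1.83 without control replicate 1.

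Grp, the gastrin-releasing peptide gene, varied most among untreated libraries, at 2.85, 3.54 and 11 CPM (8, 13 and 40 reads). DMSO libraries held 4.29 and 7.85 CPM and ONX-0914 libraries 2.27 and 6.34, all but the lowest of them inside the control range. The Log2FC against control was -0.31 ± 0.625 for ONX-0914 (FDR = 0.807) and 0.00 ± 0.702 for DMSO, smaller than the spread between the control libraries. For ONX-0914 it was 0.066 without replicate 1, -1.40 without replicate 2 and 0.53 without control replicate 3.

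The 9 genes therefore did not share 1 pattern over the ONX-0914 libraries. In replicate 1, 7 of them were above all control libraries and 2 (Cort and Grp) below, where 36.8% of genes tested lay above and 32.3% below. In replicate 2, 5 were above and none below, where 40% lay above and 38.8% below. As a log2 ratio to the control mean, Penk and Tac1 stood at 3.01 and 2.67 in replicate 1 and at 0.55 and 0.04 in replicate 2. Adcyap1 and Crh stood at 1.44 and 1.47 in replicate 1 and at 1.58 and 1.93 in replicate 2, and Cort at -1.06 and 1.76.

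**Figure D4:**
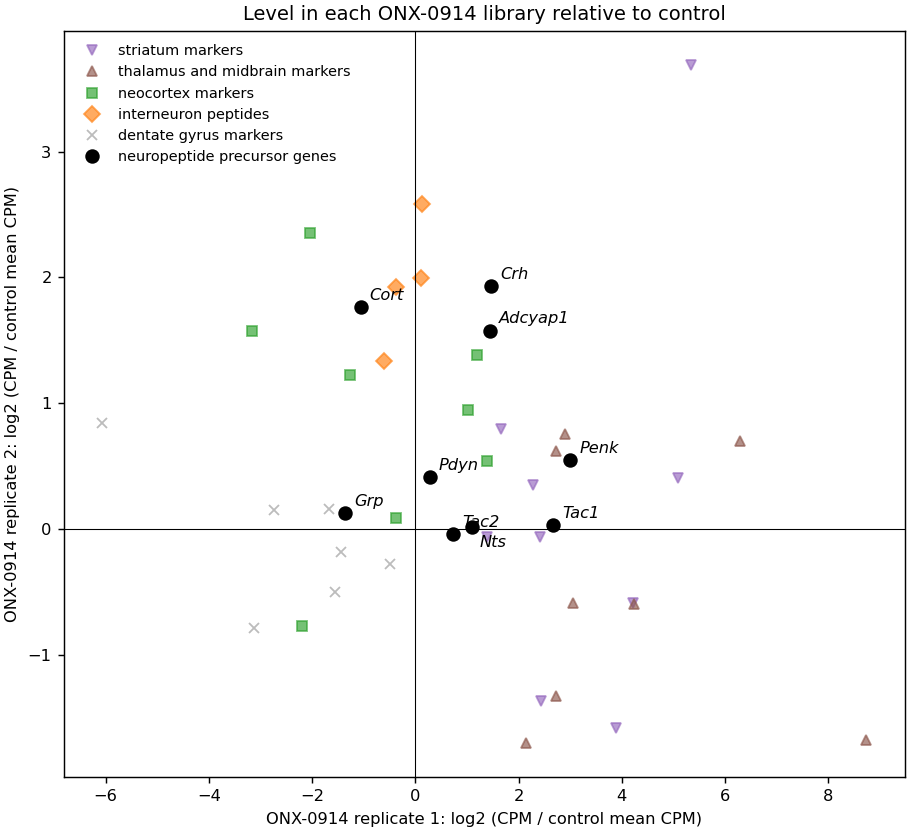
Log2 ratio to the control mean in ONX-0914 replicate 1 (horizontal axis) against replicate 2 (vertical axis) for the 9 genes (black, named) and for marker lists; 3 of the 11 thalamus and midbrain markers had no count in the control group or in replicate 2 and are not drawn. Penk (3.01, 0.55) and Tac1 (2.67, 0.04) lie toward the right with the striatum and thalamus markers, Cort (-1.06, 1.76) lies at the upper left beside the interneuron peptides, and Adcyap1 (1.44, 1.58) and Crh (1.47, 1.93) are positive on both axes.

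For each tested gene the genes with the most similar profile were sought among the 13151 others, by the root-mean-square difference in log2 CPM relative to the control mean over the 7 libraries. All 7 libraries share their treatment and depth differences between genes, so these are descriptions. The nearest to Penk were Syt9 (0.17), Rora (0.21) and Plekhg1 (0.27), and Rora, one of the thalamus and midbrain markers, stood at 280 and 64.7 CPM in ONX-0914 replicates 1 and 2 against 41.4 to 42.7 in control. The nearest to Tac1 were Syndig1l (0.24), Scn4b (0.24) and Vat1l (0.33). The nearest to Crh were Cux2 (0.12), Nova1 (0.12) and Igsf21 (0.16), and Cux2, one of the neocortex markers, stood at 61.4 and 69.9 CPM in the ONX-0914 libraries against 24.2 to 31.7 in control. Adcyap1 was nearest to Prlr (0.18), Lrrtm3 (0.26) and BC030499 (0.26). Pdyn was nearest to Ctso, Mrm3 and Zfp60, each at about 0.10, all with the DMSO libraries highest. Tac2 was nearest to Itgb4 (0.07), Pmp22 (0.10) and Atp11a (0.11), Nts to Klf4 (0.24), Haus3 (0.36) and Myof (0.37), and Grp to Gm30371 (0.27), Zfp689 (0.28) and Ripk2 (0.33).

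Of the 20 receptor genes for these peptides, 12 passed the filter on low counts. In ONX-0914 against control 1 was called, where 0.114% of all genes tested were called. Sstr3, a somatostatin receptor that also binds cortistatin, fell from 59.9, 59.7 and 58.9 CPM in control to 18.4 and 17.8 in ONX-0914 (Log2FC = -1.72 ± 0.172, FDR = 0.0199), and was at 58.8 and 52.8 in DMSO (ONX-0914 against DMSO -1.63, FDR = 0.0371). The ONX-0914 libraries lay below all others. Without ONX-0914 replicate 1 the Log2FC against control was -1.75, and without replicate 2 it was -1.70. The call was lost against control when any 1 control or DMSO library was left out, with the compared groups alone and with the replicate block (highest FDR = 0.197), although the Log2FC stayed between -1.75 and -1.57 over all 18 alternatives. Against DMSO it was lost in the same settings and with total counts, for 8 of 18 alternatives. The other 11 receptors did not pass. Of the 12, Oprk1 and Ntsr1 passed the filter only through the ONX-0914 libraries where they were high. The median Log2FC of the other 10 against control was -0.28, with 5 positive.

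Among the opioid receptors, the delta receptor gene Oprd1 stood at 9.31 and 12.8 CPM in ONX-0914 (11.4 to 20.4 in control). The kappa receptor gene Oprk1, whose product binds dynorphins, stood at 15.6 and 0.991 CPM (1.64 to 3.03 in control), high only in the library that was high in Penk and Tac1, through which it passed the filter. The mu receptor gene Oprm1 stayed at or under 1.93 CPM in all libraries and was not tested. The substance P receptor gene Tacr1 had 10.8 CPM and the neurokinin B receptor gene Tacr3 had 7.55 CPM in ONX-0914 replicate 1, against at most 1.78 CPM for either gene in any other library. Tacr2 was at most 0.537 CPM.

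The PACAP receptor gene Adcyap1r1 was at 273 to 329 CPM in control, and the ONX-0914 libraries lay on either side of this range (451 and 163), with a Log2FC of 0.05 ± 0.364. Vipr1 was at 10.3 and 17.2 CPM in ONX-0914 (21.0 to 22.3 in control), with a Log2FC of -0.61 (FDR = 0.252). Vipr2 reached 5.03 CPM in ONX-0914 replicate 1 and at most 1.10 elsewhere. The gene Crhr1, for the main receptor of corticotropin-releasing hormone, was at 6.80 and 12.9 CPM in ONX-0914 (2.50 to 7.44 in control, Log2FC = 0.94, FDR = 0.29), and Crhr2 was between 0.551 and 1.91 CPM in all libraries.

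The neurotensin receptor gene Ntsr2 was above control in both ONX-0914 libraries, at 70 and 135 CPM against 37.4 to 46.5 (Log2FC = 1.30 ± 0.273, FDR = 0.0947), and in both DMSO libraries, at 49.6 and 60. Ntsr1 was at 3.27 and 6.61 CPM in ONX-0914 against 1.07 to 2.75 in control (Log2FC = 1.65, FDR = 0.175), but it too passed the filter only through these 2 libraries. Sort1, for the neurotensin-binding sorting receptor sortilin, was lower in both ONX-0914 libraries, at 413 and 562 CPM against 776 to 803 (Log2FC = -0.69, FDR = 0.158). Of the other somatostatin receptors, Sstr1 was at 5.79 and 7.67 CPM in ONX-0914 (4.91 to 7.16 in control) and Sstr2 at 9.56 and 11.2 (4.99 to 7.09 in control, Log2FC = 0.74, FDR = 0.218), and Sstr4 was at 2.01 and 14.7 CPM (19.3 to 19.6 in control). Sstr5 and the Grp receptor gene Grpr stayed at or under 1.09 CPM.

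**Figure D5:**
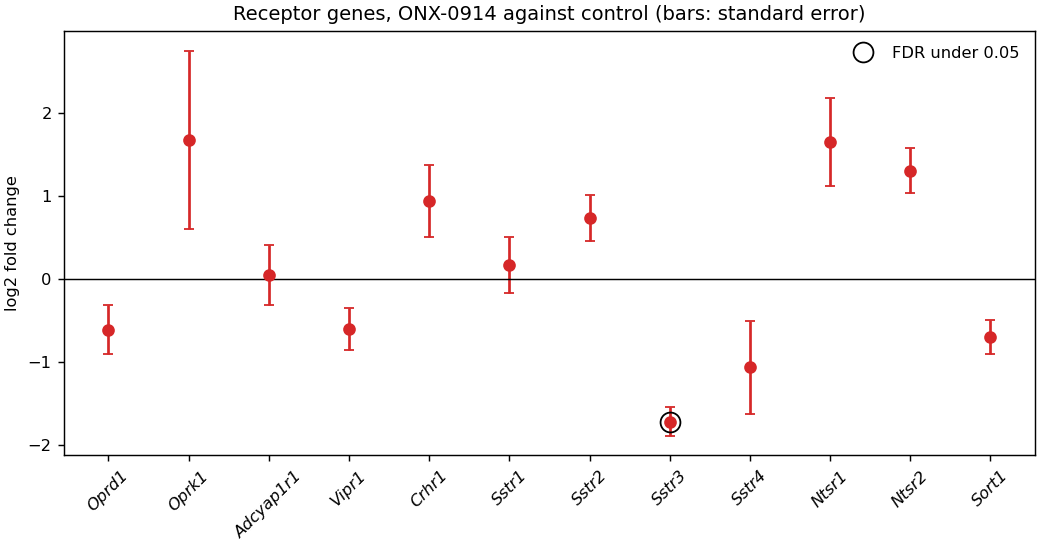
Log2FC of the 12 tested receptor genes between ONX-0914 and control, with bars for the standard error and a ring at FDR < 0.05. Sstr3 at -1.72 is the only ringed gene, and Oprk1 at 1.67 has the longest bar.

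The machinery that cuts, stores and releases peptides was measured in 16 genes, all tested, and none was called, with a lowest FDR of 0.0509. That was the chromogranin gene Chgb, a granule protein gene, which stood at 2127, 2124 and 2241 CPM in control, 2316 and 2229 in DMSO and 785 and 641 in ONX-0914 (Log2FC = -1.60 ± 0.219). The next lowest Log2FC was that of Cadps2, a priming factor of dense-core vesicles (-0.76 ± 0.282, FDR = 0.216), at 50.1 and 103 CPM in ONX-0914 against 125 to 136 in control. The largest positive values were those of Pcsk1n, which encodes an inhibitor of prohormone convertase 1 (1.04 ± 0.273, FDR = 0.133), at 266 and 520 CPM against 170 to 221, and Qpct, for glutaminyl cyclase (0.84 ± 0.399, FDR = 0.298), at 7.30 and 7.93 CPM against 2.20 to 5.45. The convertase genes Pcsk1 and Pcsk2 had a Log2FC of 0.31 and -0.04, and the median of the 16 was -0.09, with 7 positive.

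Of 11 genes for peptidases and the binding protein of corticotropin-releasing hormone, 9 were tested and none was called (lowest FDR = 0.123). Ace, for angiotensin-converting enzyme, had the largest value (1.46 ± 0.353), at 7.30 and 12.8 CPM in ONX-0914 against 3.0 to 4.28 in control. Mme, for neprilysin, which degrades enkephalins and tachykinins, had 0.84 ± 0.394 (FDR = 0.291), at 15.4 and 7.07 CPM against 5.51 to 6.27. The 2 genes with a negative value were Prep (-0.45 ± 0.257, FDR = 0.369), at 40.3 and 24.5 CPM against 38.7 to 49.3, and Crhbp, the binding protein gene (-0.37 ± 0.371, FDR = 0.602), at 9.06 and 23.7 CPM against 19.6 to 26.7. The median of the 9 was 0.14.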

How the data were processed

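RNA-seq counts of 7 hippocampus libraries were used. Per the labels and the study's methods, directional libraries were sequenced as 100-base single-end reads, and the submitters' processing notes name Trimmomatic 0.39, STAR 2.7.3a, featureCounts 2.00 and build GRCm39, without parameters, strand setting or annotation version. The authors deposited raw counts per gene and library. Of the reads listed as on a gene, without a feature or ambiguous, 89.6% to 91.4% were on genes per library. Lines for unassigned reads stayed out of library sizes and tests. Symbols, exon lengths and coding sequences came from GENCODE M21 (52083 of 55416 identifiers matched), promoters from RefSeq. No gene coordinates of the count tables are printed, because the builds differ.

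Counts were fitted in R 4.3.3 with edgeR 4.0.16 (filterByExpr over 3 groups, TMM, glmQLFit, glmQLFTest) on all 13152 genes passing the filter, and p-values were adjusted by Benjamini–Hochberg over all of them (FDR, threshold 0.05). Log2FC values use a prior count of 0.125. CPM used TMM-scaled library sizes (factors 0.965 to 1.10). The fit was tested on simulated counts. Alternatives used DESeq2 1.42.0, limma voom 3.58.1, other scalings and filters, and each library left out.

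The members and lists were chosen with earlier results of these data known. Named were all 9 members, their receptors, from each other list the called genes and the 2 largest Log2FC in each direction, and the 3 genes nearest in profile to each tested member. Other genes named were picked with their values in view.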

Additional observations from a re-analysis of the deposited data

How the results depend on the processing

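The number of members called at FDR < 0.05 in ONX-0914 against control was 0, and 1 (Penk) in DESeq2, 2 (Penk and Adcyap1) without the filter on low counts, and 0 to 4 when 1 library was left out. It was 4 (Penk, Adcyap1, Crh and Cort) without ONX-0914 replicate 1, where 7023 of 13713 genes (51.2%) were called, and 3 (Penk, Tac1 and Adcyap1) without replicate 2, where 2594 of 13635 (19%) were called, against 15 in all 7 libraries. In ONX-0914 against DMSO it was 0, and 2 (Penk and Adcyap1) in DESeq2, 2 (the same genes) without the filter and 0 to 4 with 1 library left out, with the same members called without either ONX-0914 library as against control. For DMSO against control it was 0 in every setting run, although the number of all genes called was 0 to 146. The counts of all genes called were 388, 245 and 9 in DESeq2 and 578, 297 and 11 without the filter, for the 3 comparisons in the order ONX-0914 against control, ONX-0914 against DMSO and DMSO against control. The cause of these differences was not tested. Crh and Cort entered the fit without ONX-0914 replicate 1 only through replicate 2, where they were high. Their calls there are therefore not independent of that library's level.

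Correlations of deviations from the group means were -0.112 to 0.085 between same-numbered libraries. In a group of 2 libraries the deviations mirror each other, so these values cannot decide whether the replicate numbers pair the libraries. ONX-0914 and DMSO share only number 2. With the replicate block, 0 members and 1, 0 and 0 genes were called in the 3 comparisons, and values changed sign for Grp (0.31 for ONX-0914 against control, 0.58 against DMSO and -0.27 for DMSO against control), Penk (0.33, DMSO against control) and Tac1 (0.45, DMSO against control), while Tac1 in ONX-0914 against DMSO was 0.73. Grp in DMSO against control was -0.018 without the filter and -0.042 with the compared groups alone. Tac2 in ONX-0914 against DMSO was 0.11 with total counts, 0.012 with at least 10 counts in every library, 0.018 with the compared groups alone and 0.0093 in the earlier quasi-likelihood fit. With 1 library left out, Log2FC ranged for Grp from -1.40 to 0.53 (ONX-0914 against control), -1.36 to 0.14 (against DMSO) and -0.46 to 0.88 (DMSO against control), for Tac2 from -0.061 to 0.71 (ONX-0914 against control) and -0.39 to 0.38 (against DMSO), and in DMSO against control for Penk from -0.20 to 0.053 and for Tac1 from -1.80 to 0.57. Of 416 values for single genes under alternatives, 372 kept their direction and side of the threshold, 19 kept their direction and passed the threshold, and 25 changed sign. Scaling by total counts moved the median Log2FC of all genes to 0.19 in ONX-0914 against control, from 0.05.

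Depth limits Cort, Crh, Nts, Tac1 and Adcyap1 most, which had 2 to 24 reads per library outside ONX-0914.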

Other observations

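Of 23 further neuropeptide precursor genes, only Pnoc (nociceptin) and Pomc passed the filter, with a Log2FC against control of 0.29 (FDR = 0.746) and 0.02 (FDR = 0.99). Some untested ones, chosen after their values were seen, stood out in 1 of the 2 ONX-0914 libraries. Trh, the precursor of thyrotropin-releasing hormone, stood at 18.9 CPM in replicate 1, 0.727 in replicate 2 and 0.357 to 1.78 in the other 5 libraries. Cartpt, the precursor of the peptide CART, stood at 5.29 CPM in replicate 1 and at most 0.727 elsewhere, and Calca, the precursor of the calcitonin gene-related peptide, at 4.03 CPM in replicate 1 and 1.26 in replicate 2, against at most 0.714 elsewhere. Nppc, the precursor of C-type natriuretic peptide, stood instead at 6.08 CPM in replicate 2 and 1.01 in replicate 1, with 0.357 to 1.93 in the other 5. Ucn3, Kiss1, Nmu, Nms and Tac4 had no count in any library.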
